A study of Mus musculus with 6 samples.

Results

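The comparison described here set chondrocytes treated with transforming growth factor alpha (TGF-alpha) against vehicle control, and it took in 4 of the 6 libraries of the series. Its members were chosen by label: 2 libraries titled as control and 2 titled as TGF-alpha. Chondrocytes, the cells that make cartilage, came from the femoral epiphyses of C57BL/6 mice and were grown in medium with 10% FBS. Control cells received 0.1% DMSO for 48 h, and treated cells received 0.1% DMSO with TGF-alpha at 10 ng/ml for 48 h. The other 2 libraries, TGF-alpha with 10 µM gefitinib, took part only in the shared estimate of the spread. The labels conflict on the vehicle, PBS or DMSO, and on the age, given as postnatal day 1 beside the unexplained term P2. Whether the replicates of a group came from different cultures or animals is not stated, and the p-values therefore reflect variation among these libraries that may be only technical.

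TGF-alpha binds the epidermal growth factor receptor (EGFR), a tyrosine kinase whose activation feeds the Ras and ERK, phosphoinositide 3-kinase and phospholipase C pathways. In the growth plate the receptor is known for its part in the turnover of cartilage into bone, and in articular cartilage for effects on matrix synthesis and cell proliferation. Levels are given as CPM, the read count relative to the TMM-scaled library size, in each library, always control 1, control 2, TGF-alpha 1 and TGF-alpha 2 in that order. A gene was called, and is said to have risen or fallen, at a Benjamini-Hochberg adjusted p under 0.05 over all tested genes in edgeR's quasi-likelihood test. The log2 fold changes are TGF-alpha minus control and stand with their SE. The libraries held 13308815 to 16096263 counts.

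Of 15362 tested genes 4600 were called, which is 29.9%. The 2446 genes that rose made up 15.9% of those tested and the 2154 that fell 14.0%, and 1086 genes (7.07%) were called with a change of at least 2-fold. More than a 4-fold change was seen in 135 genes that rose and 121 that fell, while 2505 of the called genes changed by less than 1.5-fold. The median log2 fold change over all tested genes was 0.0039. Calls were more frequent among abundant genes, with 48.8% called in the highest of 4 equal classes of mean level and 13.9% in the lowest. All 9 chondrocyte markers fell, and their summed level went from 78781 and 73867 CPM in control to 39232 and 38019 CPM with TGF-alpha. In bulk RNA fewer cells of a type and less RNA per cell cannot be told apart. Egfr itself, at 69.2 and 65.1 CPM in control and 71.97 and 70.3 CPM with TGF-alpha, was not called (adjusted p = 0.369).

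**Figure D1:**
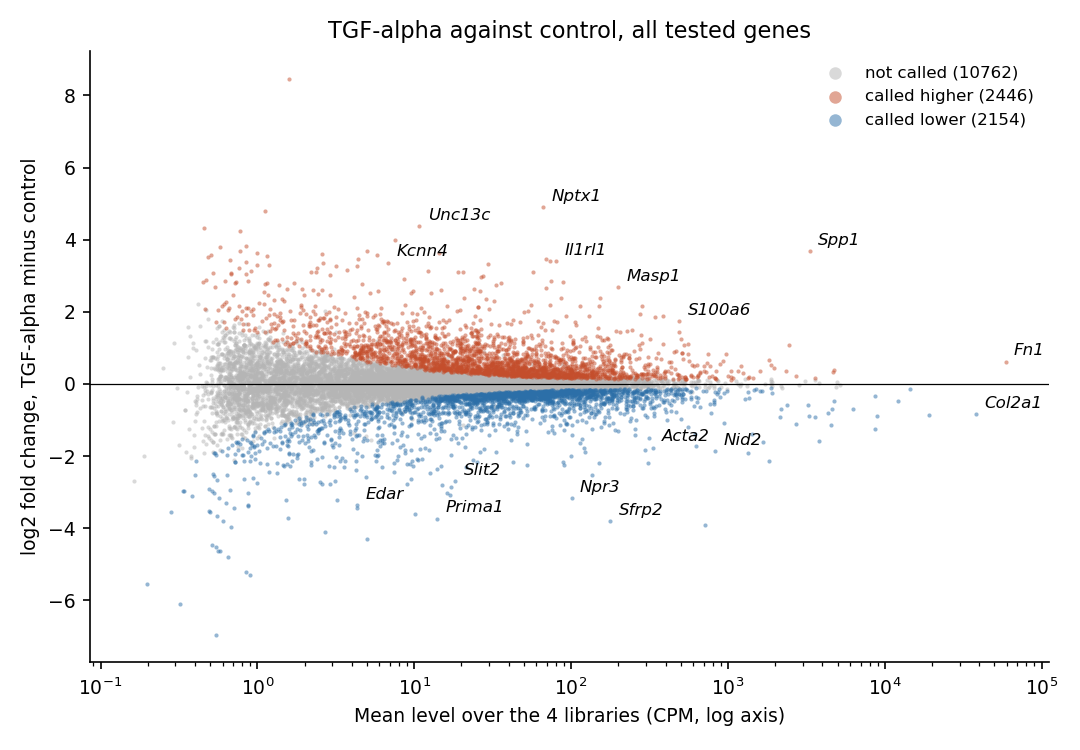
Log2 fold change of TGF-alpha minus control against the mean level over the 4 libraries in CPM on a log axis, with 1 point for each of the 15362 tested genes. The 2446 genes called higher (orange) and 2154 called lower (blue) leave the grey band nearer to 0 at high levels than at low ones.

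The 15 largest rises and 15 largest falls among genes averaging 5 CPM or more held chromatin, signalling and secretory genes beside those of matrix. Nptx1 (chromosome 11, 119538719 to 119547820, GRCm38), a secreted neuronal pentraxin that gathers glutamate receptors at synapses, had the largest rise, at 3.90 and 4.58 CPM in control and 129.7 and 128 CPM with TGF-alpha (log2 4.91 ± 0.16, adjusted p = 1.23e-11). Hmga2 (chromosome 10, 120361268 to 120476469), a DNA-binding protein that shapes chromatin in embryonic and growing cells, rose 8.59-fold, from 12.3 and 11.5 to 108 and 96.2 CPM. Prima1, the membrane anchor of acetylcholinesterase, fell 13.3-fold, from 25.9 and 26.4 to 2.24 and 1.67 CPM (log2 -3.74 ± 0.17). Npr3 (chromosome 15, 11839896 to 11907837), the clearance receptor for natriuretic peptides, fell from 179 and 184 to 20.3 and 20.1 CPM (log2 -3.17 ± 0.06, adjusted p = 1.12e-13). Nog, which encodes the bone morphogenetic protein antagonist noggin, fell from 28.96 and 31.7 to 4.69 and 2.40 CPM. The groups lay far apart in all of these genes, and Nog had the widest gap between its TGF-alpha libraries relative to their level.

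By the change in mean CPM, abundant matrix genes led. Spp1, the gene for the matrix protein osteopontin, went from 478 and 482 to 6249 and 6074 CPM (log2 3.68 ± 0.04). Fn1, the gene for fibronectin, stood at 46732 and 46006 CPM in control and 73300.4 and 69305 CPM with TGF-alpha. Col6a3, a chain of the pericellular collagen VI, stood at 1561 and 1582 CPM in control and 3439 and 3207 CPM with TGF-alpha (log2 1.08 ± 0.04), and its partner chain gene Col6a1 rose by less (log2 0.35 ± 0.04). Timp3, a matrix-bound inhibitor of metalloproteinases, went from 4119 and 4208 to 5232 and 5156 CPM. Fth1, the ferritin heavy chain that stores iron, went from 717 and 690.3 to 1236 and 1260.0 CPM. Thbs1, the gene for the matrix protein thrombospondin-1, fell from 25499.7 and 23783 to 14194 and 12728 CPM, and App, the amyloid precursor protein gene, from 5646 and 5387 to 3173 and 3174 CPM. Both fell by less than 2-fold, from a far higher level than the genes of the paragraph above.

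Across 106 gene lists of families and pathways, which held 4254 of the tested genes, 68 had a larger share of members called higher than the 15.9% of all genes, 62 a larger share called lower than 14.0%, and 36 exceeded both. Another 12 lay under both. A share above the background is a description of the list and not a test of it. The background pools 12731 mRNA entries (33.7% called) with entries of other types, such as 2322 ncRNA entries (11.8% called). Among the mRNA entries 2238 rose and 2051 fell. The background is therefore a low bar for lists of protein-coding genes. No list was set beside genes of like level, although the share called grew with level. Counts that moved by more than 1.5 times when any 1 of the 4 libraries was left out are followed by their range over the 4 omissions. Fewer genes were called over all tested genes under these omissions too. The ranges are therefore not to be read against the 15.9% and 14.0% of the full fit.

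**Figure D2:**
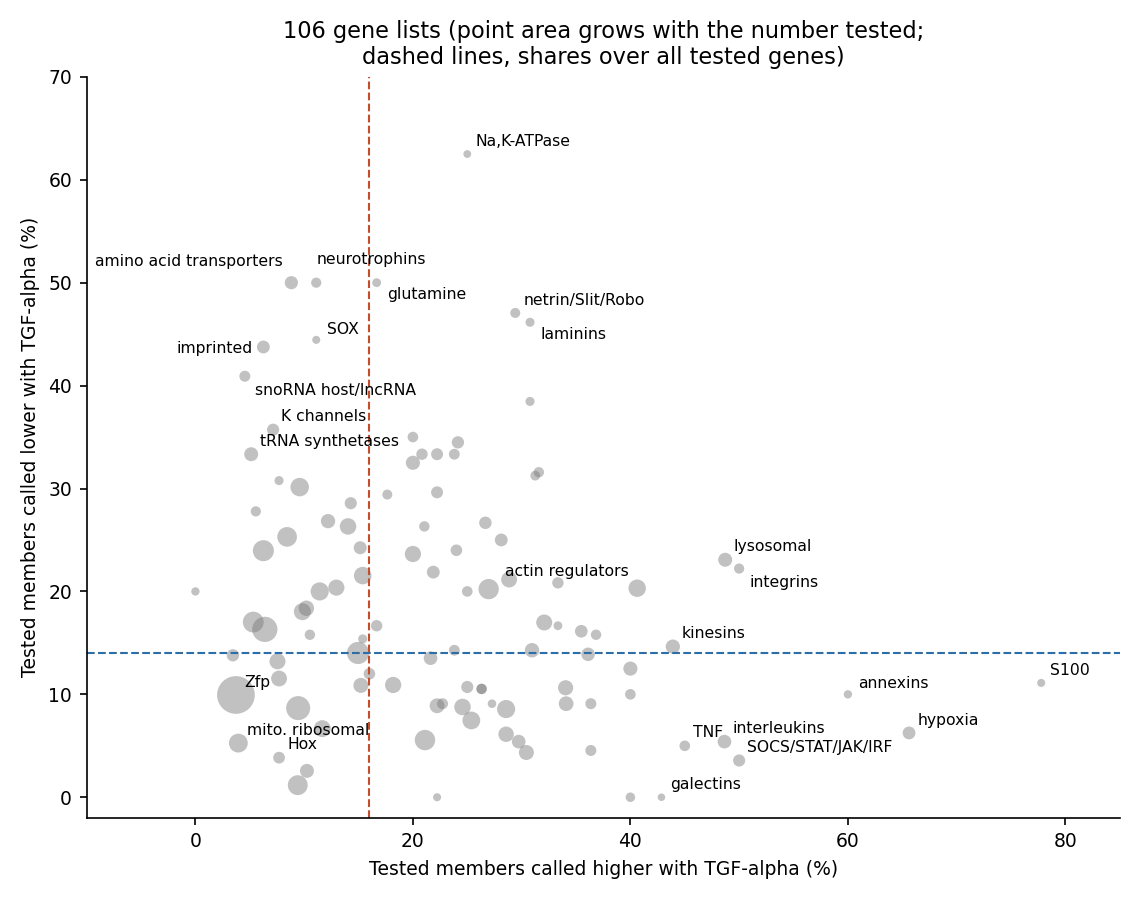
Share of tested members called lower against the share called higher, in percent, for 106 gene lists, with dashed lines at the 15.9% and 14.0% of all tested genes. S100 proteins (77.8% higher) and hypoxia-regulated genes (65.6% higher) lie far right, sodium-potassium ATPase genes (62.5% lower) at the top, and Hox and mitochondrial ribosomal genes near the origin.

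Genes for the uptake and charging of amino acids fell more often than they rose. Cells import amino acids through solute carriers and load them onto tRNA with aminoacyl-tRNA synthetases, and the factor ATF4 raises many of both sets of genes when amino acids run short. Of 34 tested amino acid transporters 17 fell (50%) and 3 rose, with a median log2 fold change of -0.32. Of 39 aminoacyl-tRNA synthetases 13 fell (33.3%) and 2 rose (0 to 1 with 1 library left out). Of 12 glutamine and glutamate genes 6 fell and 2 rose (1 to 2). Atf4 (chromosome 15, 80255184 to 80257545) stood at 539 and 540.5 CPM in control and 327 and 317 CPM with TGF-alpha (log2 -0.74 ± 0.04, adjusted p = 6.89e-09), and the related factor gene Atf3 fell 2.58-fold from a low level of 9.60 and 11.8 to 4.54 and 3.78 CPM.

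Some of these promoters carry the letters that ATF4 and its partners are known to bind, the amino acid response element TGATGCAA. These letters, on either strand, were in 0.574% of the 9760 tested genes with a 300-base RefSeq promoter (250 bases before to 50 after the start, GRCm38.p6), in 4 of 28 tRNA synthetases and in 3 of 23 amino acid transporters. They were in 22 of the 1548 genes that fell (1.42%) and in only 5 of the 1699 that rose (0.294%). The stretches below lie upstream of the start used for the window, on the gene's strand. They show the match, with the element in capitals, in 4 genes that fell, picked as examples. The matches in Iars, Yars, Slc1a4 and Slc7a7 are not printed. For Aars the start used lies inside the gene's RefSeq span, which begins at 111027778, so its stretch lies inside that span too. The Slc7a11 stretch holds 2 matches, 1 on each strand.
Aars, chr8:111033690-111033777, plus strand: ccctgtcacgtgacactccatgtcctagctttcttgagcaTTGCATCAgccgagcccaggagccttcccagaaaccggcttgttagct
Tars, chr15:11399659-11399713, minus strand: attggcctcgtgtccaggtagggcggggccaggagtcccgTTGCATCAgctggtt
Slc7a11, chr3:50443614-50443719, minus strand: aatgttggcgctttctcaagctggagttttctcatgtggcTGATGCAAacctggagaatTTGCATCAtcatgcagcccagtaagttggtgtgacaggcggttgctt
Atf3, chr1:191183396-191183483, minus strand: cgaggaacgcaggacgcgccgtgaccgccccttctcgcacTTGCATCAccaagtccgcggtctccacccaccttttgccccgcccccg

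Slc7a11, the cystine and glutamate exchanger, whose promoter stretch is printed above, fell from 9.44 and 8.66 to 3.25 and 2.91 CPM (log2 -1.55 ± 0.21, adjusted p = 4.37e-05). The glutamate transporter genes split: Slc1a6 fell 4.39-fold, from 7.81 and 5.99 to 1.59 and 1.53 CPM, and Slc1a1 2.66-fold, whereas Slc1a3 rose from 5.39 and 4.84 to 11.4 and 9.96 CPM. Among the synthetases, Tars, for threonine, fell from 156 and 173 to 102 and 106 CPM (log2 -0.67 ± 0.06) and Aars, for alanine, from 512 and 518 to 349.8 and 343 CPM (log2 -0.57 ± 0.04). Eprs, for glutamate and proline, and Gars, for glycine, fell by 0.52 ± 0.04 and 0.44 ± 0.05 on the log2 scale. These changes were below 2-fold, in abundant transcripts. The asparagine synthetase gene Asns went from 267 and 260.4 to 192 and 189.6 CPM, the alanine aminotransferase gene Gpt2 from 102 and 96.98 to 64.1 and 63.6 CPM and the glutamine synthetase gene Glul from 34.4 and 32.6 to 19.98 and 19.5 CPM. Of 30 serine, glycine and one-carbon genes 8 rose (4 to 8) and 8 fell (5 to 7). The falls included the mitochondrial folate enzyme genes Mthfd2, from 197 and 168 to 107 and 99.8 CPM, and Aldh1l2, from 430.0 and 429 to 253 and 237 CPM.

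Genes of regulated secretion rose at several steps. In nerve and endocrine cells cargo is packed in dense-core granules, cut by prohormone convertases, and released when Rab3, Munc13 and SNARE proteins bring a vesicle to the membrane. Unc13c (chromosome 9, 73479422 to 74008155), a vesicle-priming Munc13 protein, rose from 0.937 and 1.02 to 21.5 and 19.7 CPM (log2 4.38 ± 0.22, adjusted p = 1.13e-09), and its relative Unc13a from 1.64 and 0.700 to 3.97 and 4.14 CPM. Ptprn, a membrane protein of dense-core granules, rose from 1.09 and 0.382 to 9.23 and 9.31 CPM (log2 3.69 ± 0.35). The vesicle GTPase genes Rab3b and Rab3d rose 5.17-fold and 2.36-fold, the former from 6.56 and 6.94 to 32.5 and 37.5 CPM. Pcsk2, a convertase of granules, rose from 11.9 and 12.4 to 27.1 and 31.2 CPM, and Pcsk6, a convertase of the constitutive pathway, fell from 148 and 146 to 74.4 and 68.6 CPM. Not every step rose: Syt1, the calcium sensor of transmitter release, fell 10.8-fold, from 7.81 and 8.02 to 0.793 and 0.654 CPM (adjusted p = 9.82e-08).

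Among the cargo genes, Penk, the enkephalin precursor gene and one of the 10 largest gains in CPM, went from 4244 and 3935 to 5121 and 5573 CPM (log2 0.39 ± 0.05), and Apln, the gene for the peptide apelin, from 52.8 and 56.5 to 100.1 and 90.6 CPM. Of 22 neuropeptide, hormone and granin genes 8 rose and 2 fell. Of 67 SNARE, synaptotagmin and exocytosis genes 17 rose (10 to 12) and 5 fell (1 to 3), and of 49 Rab GTPases 14 rose (7 to 9) and 3 fell. Synaptic adhesion genes went both ways, with 6 of 27 higher and 9 lower: Nptx2 and Slitrk6 rose 6.78-fold and 4.32-fold, and Tenm2 fell 3.48-fold, all at a few CPM. Neuronal marker genes were not called beside this group. Their summed level was 7.10 and 7.13 CPM in control and 7.72 and 6.18 CPM with TGF-alpha, 0 of the 4 tested markers were called, and Rbfox3, Elavl3 and Slc17a6 had no count in any of these libraries.

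Guidance cues and neurotrophic receptors, which steer growing axons, vessels and neural crest cells, fell somewhat more often than they rose. Slit2 (chromosome 5, 47981291 to 48307735), a secreted repellent, fell from 31.5 and 31.7 to 5.48 and 4.22 CPM (log2 -2.70 ± 0.14, adjusted p = 1.81e-09). The netrin family members Ntng2 and Ntn4 fell 4.36-fold and 2.56-fold, and of 17 netrin, Slit and Robo genes 8 fell (47.1%) and 5 rose (2 to 5). Among 29 semaphorins, plexins and neuropilins 10 fell (6 to 8) and 7 rose. The receptor gene Plxnb1 went from 219 and 215 to 92.96 and 97.6 CPM, whereas the ligand genes Sema6b and Sema7a rose 3.26-fold and 3.56-fold. In the Eph family the receptors Ephb2 and Ephb3 and the ligand Efnb2 fell by 0.72 to 0.82 on the log2 scale, while the ligand gene Efna1 rose from 27.3 and 25.3 to 36.1 and 37.01 CPM; 5 of 17 members fell and 3 rose.

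Neurotrophins and their receptors had the lowest median of the 106 lists, -0.65 on the log2 scale, with 9 of 18 lower (50%) and 2 higher. Ngfr, the p75 neurotrophin receptor gene, fell from 9.44 and 7.51 to 0.865 and 1.96 CPM (log2 -2.57 ± 0.30), and Mdk, the gene for the heparin-binding growth factor midkine, from 6.09 and 7.58 to 1.80 and 1.82 CPM. The receptors for glial cell line-derived factors parted ways. Gfra1 rose from 11.1 and 9.74 to 38.3 and 37.95 CPM (log2 1.88 ± 0.11, adjusted p = 8.04e-09) and Gfra2 fell from 6.24 and 5.73 to 2.16 and 1.96 CPM. Markers of Schwann cells and glia moved down with this group, from a sum of 87.1 and 80.6 CPM to 67.7 and 68.9 CPM, most of it S100b, which chondrocytes also express, with 2 of 3 tested markers lower and Foxd3 at 0 in these libraries. Their part in the result was not tested.

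**Figure D3:**
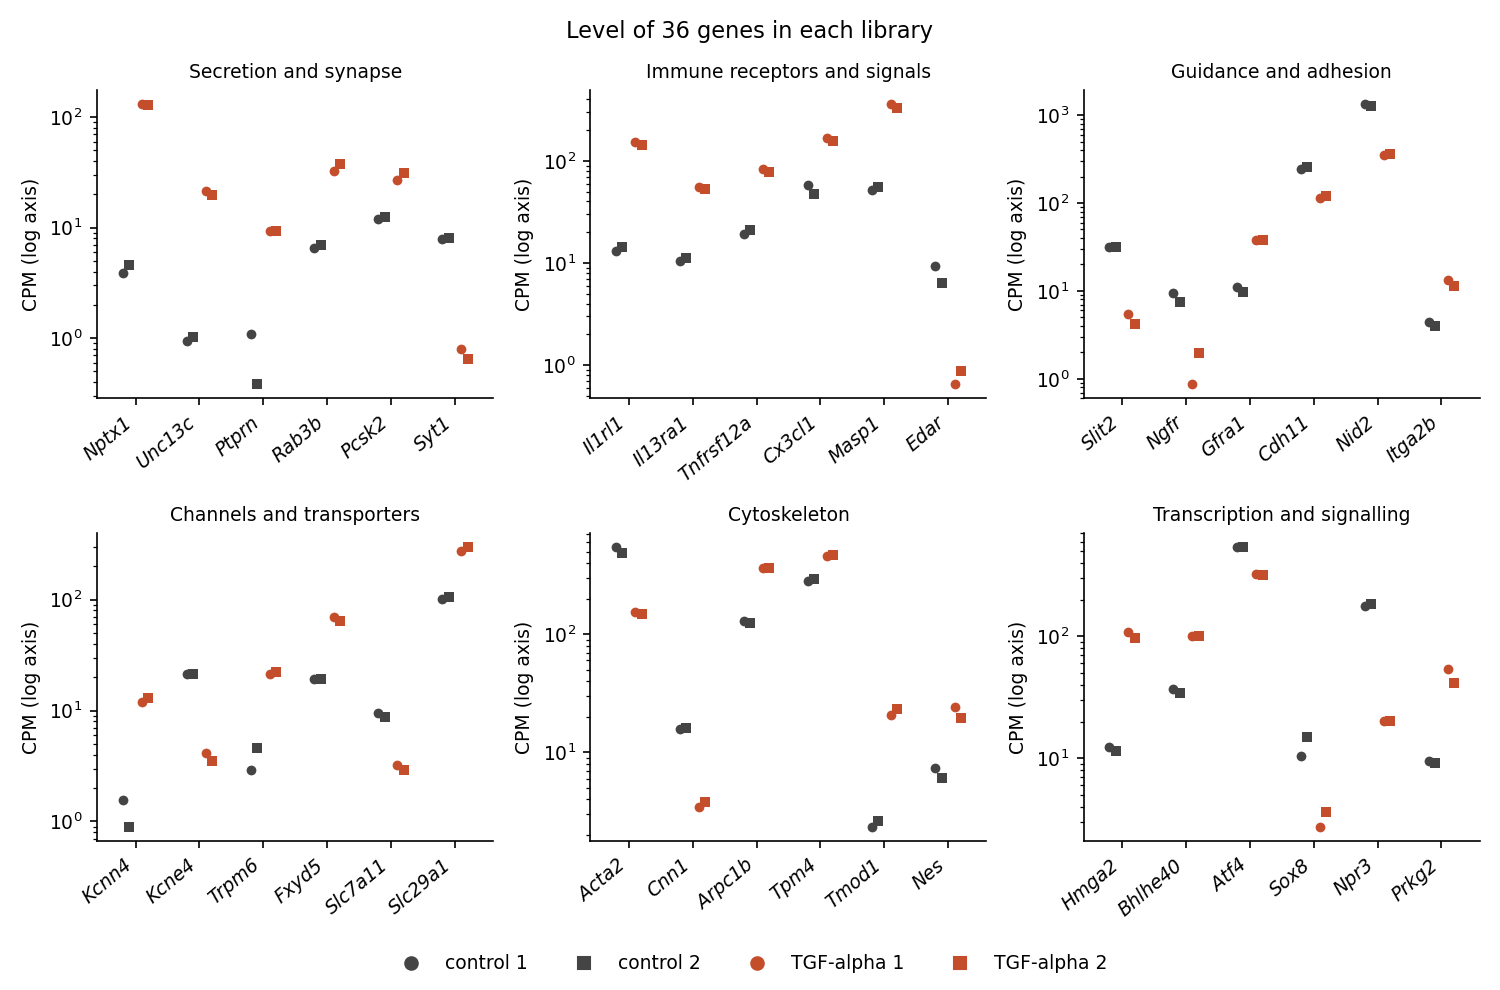
Level in CPM on a log axis of 36 genes in each of the 4 libraries (grey, control; orange, TGF-alpha; circles, replicate 1; squares, replicate 2), in 6 functional groups. The groups do not overlap in any gene shown, as in 4598 of all 4600 called and 9845 of all 15362 tested genes, and the fitted change reaches 30.1-fold in Nptx1.

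The genes by which cells hold to each other and to basement membrane rose and fell by family. Of 18 integrin subunits 9 rose (50%) and 4 fell. Itga2b, the platelet alpha-IIb subunit, rose from 4.45 and 4.01 to 13.3 and 11.5 CPM (log2 1.56 ± 0.19), Itgb4, the partner for laminin in hemidesmosomes, from 2.19 and 3.12 to 8.22 and 6.83 CPM, and Itgb8 from 5.23 and 5.22 to 11.9 and 11.3 CPM. Laminins and nidogens went the other way in 6 of 13 cases, with 4 higher. Nid2 (chromosome 14, 19751257 to 19811787), the basement membrane linker nidogen-2, fell from 1318 and 1279 to 351 and 357 CPM (log2 -1.87 ± 0.04, adjusted p = 4.75e-13), the largest fall of that list in CPM, and Lamb3, a laminin-332 chain gene, from 28.2 and 29.3 to 8.65 and 9.96 CPM. Of 13 classical and desmosomal cadherins 4 fell and 1 rose (1 to 2). Cdh11, the mesenchymal cadherin of bone and joint cells, went from 246 and 254 to 114 and 121 CPM and Cdh3 from 17.6 and 16.6 to 3.32 and 4.58 CPM, while the anchored cadherin gene Cdh13 rose from 8.20 and 7.005 to 16.6 and 13.8 CPM.

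Junction genes rose in 8 of 20 cases (5 to 8) and fell in 2 (1), though at low levels. The claudin gene Cldn1 stood at 1.01 and 1.08 CPM in control and 2.96 and 2.84 CPM with TGF-alpha. Panx3, a pannexin channel gene known from prehypertrophic chondrocytes and osteoblasts, fell from 40.2 and 41.7 to 8.22 and 9.96 CPM (log2 -2.17 ± 0.11). Osteoblast markers fell beside it, from a sum of 122 and 126 CPM to 52.2 and 57.4 CPM, with 2 of 4 tested markers, Ibsp and Sp7, lower, and their part in the result was not tested. The adhesion genes Nrcam and Kirrel3, of the immunoglobulin family, rose 2.53-fold and 2.39-fold. Their list of 24 tested genes held 4 rises and 4 falls of at least 2-fold. Its log2 fold changes ran from -3.54 to 1.34. The tetraspanin gene Tspan18 fell 4.62-fold. Of 53 protocadherins and Fat cadherins 4 rose and 7 fell (3 to 6), both below the background shares.

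S100 proteins, annexins and galectins each had a share of rises above the background of 15.9%. S100 proteins are EF-hand calcium sensors, annexins bind membranes in the presence of calcium, and galectins bind beta-galactosides. Of 9 S100 genes 7 rose (77.8%, median log2 0.75) and 1 fell (0 to 1). S100a6 (chromosome 3, 90612894 to 90614414) stood at 225 and 229 CPM in control and 788 and 722 CPM with TGF-alpha (log2 1.73 ± 0.07, adjusted p = 7.88e-11) and S100a4 at 35.1 and 36.3 CPM in control and 119 and 119 CPM with TGF-alpha (log2 1.74 ± 0.07). S100a13 and S100a16 rose 1.76-fold and 1.68-fold. Of 10 annexins 6 rose and 1 fell, led by Anxa8, from 52.9 and 57.7 to 205 and 204 CPM (log2 1.88 ± 0.07), and Anxa1, from 170.3 and 173 to 306 and 290.3 CPM. Of 7 galectins 3 rose and 0 fell, Lgals3 from 117 and 106 to 296 and 304 CPM and Lgals1 from 354 and 354 to 752 and 768 CPM.

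Receptors and signals shared with the immune system rose more often than the background. Of 37 interleukins and their receptors 18 rose (48.6%, median log2 0.50) and 2 fell. Il13ra1, a receptor chain for interleukins of the type 2 response, rose from 10.5 and 11.3 to 55.6 and 52.5 CPM (log2 2.31 ± 0.10, adjusted p = 4.08e-10), next to the interleukin-33 receptor gene Il1rl1, from 13.1 and 14.4 to 151 and 142 CPM. Il18rap, a chain of the interleukin-18 receptor, and Tslp, the gene for a cytokine of epithelia and stroma, rose 10.9-fold and 6.98-fold from under 1 CPM. Of 15 chemokines and receptors 6 rose and 0 fell (0 to 1). Cx3cl1, the membrane-bound chemokine fractalkine, went from 57.4 and 47.2 to 168 and 158 CPM (log2 1.64 ± 0.09), and the neutrophil attractant genes Cxcl1, Cxcl3 and Cxcl5 rose 3.23-fold, 9.69-fold and 3.22-fold.

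TNF ligands and receptors rose more often than they fell, with 9 of 20 higher (5 to 7) and 1 lower (1 to 2). Tnfrsf12a, the receptor for the cytokine TWEAK, rose from 19.4 and 21.1 to 82.4 and 78.5 CPM (log2 1.98 ± 0.09) and Tnfrsf1b, TNF receptor 2, from 25.5 and 24.2 to 56.5 and 58.6 CPM, whereas the fall was that of Edar, the ectodysplasin receptor of skin appendages, 10.2-fold, from 9.44 and 6.37 to 0.649 and 0.873 CPM (adjusted p = 8.45e-07). In the NF-kappaB pathway 14 of 46 rose (8 to 12) and 2 fell (0 to 2). The rises included the nuclear inhibitor Nfkbiz, from 14.8 and 14.9 to 51.2 and 42.7 CPM, the necroptosis kinase Ripk3, from 14.9 and 15.1 to 31.3 and 35.6 CPM, and the kinase Map3k14 of the noncanonical branch, from 14.3 and 14.2 to 32.5 and 26.4 CPM. Of 28 SOCS, STAT, JAK and IRF genes 14 rose (50%) and 1 fell: Socs3, a feedback inhibitor of cytokine receptors, went from 76.3 and 80.3 to 126 and 133 CPM and Irf7, a factor of interferon responses, from 5.23 and 5.29 to 9.66 and 13.02 CPM, while Socs2, an inhibitor of growth hormone signalling, fell from 29.6 and 27.7 to 17.2 and 18.8 CPM.

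Of 18 complement genes 5 fell and 1 rose. The rise was that of Masp1 (chromosome 16, 23451785 to 23521240), a protease of the lectin pathway, from 51.4 and 55.5 to 356 and 331 CPM (log2 2.68 ± 0.06, adjusted p = 4.75e-13). C4b fell from 317 and 314 to 157 and 156 CPM, a value that may hold reads of its near-identical copy C4a, since how such reads were split is not known. Of 22 antigen presentation genes 8 rose and 1 fell, at low levels such as 1.17 and 1.40 CPM in control and 4.62 and 3.999 CPM with TGF-alpha for the immunoproteasome subunit Psmb8 and 4.37 and 4.71 CPM in control and 11.5 and 10.7 CPM with TGF-alpha for H2-M3. Macrophage markers summed to 4.60 and 5.48 CPM in control and 9.81 and 12.5 CPM with TGF-alpha, with Cd68 higher, Lyz2 lower and Ptprc, Emr1, Tyrobp and C1qa at 0 in these libraries. Neutrophil markers had no tested member, with at most 1 count in any of them, whereas endothelial markers summed to 0.312 and 0.509 CPM in control and 2.38 and 1.82 CPM with TGF-alpha, with the 1 tested marker, Flt1, higher and Cdh5, Emcn and Tie1 at 0. The part of these markers in the immune gene results was not tested.

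**Figure D4:**
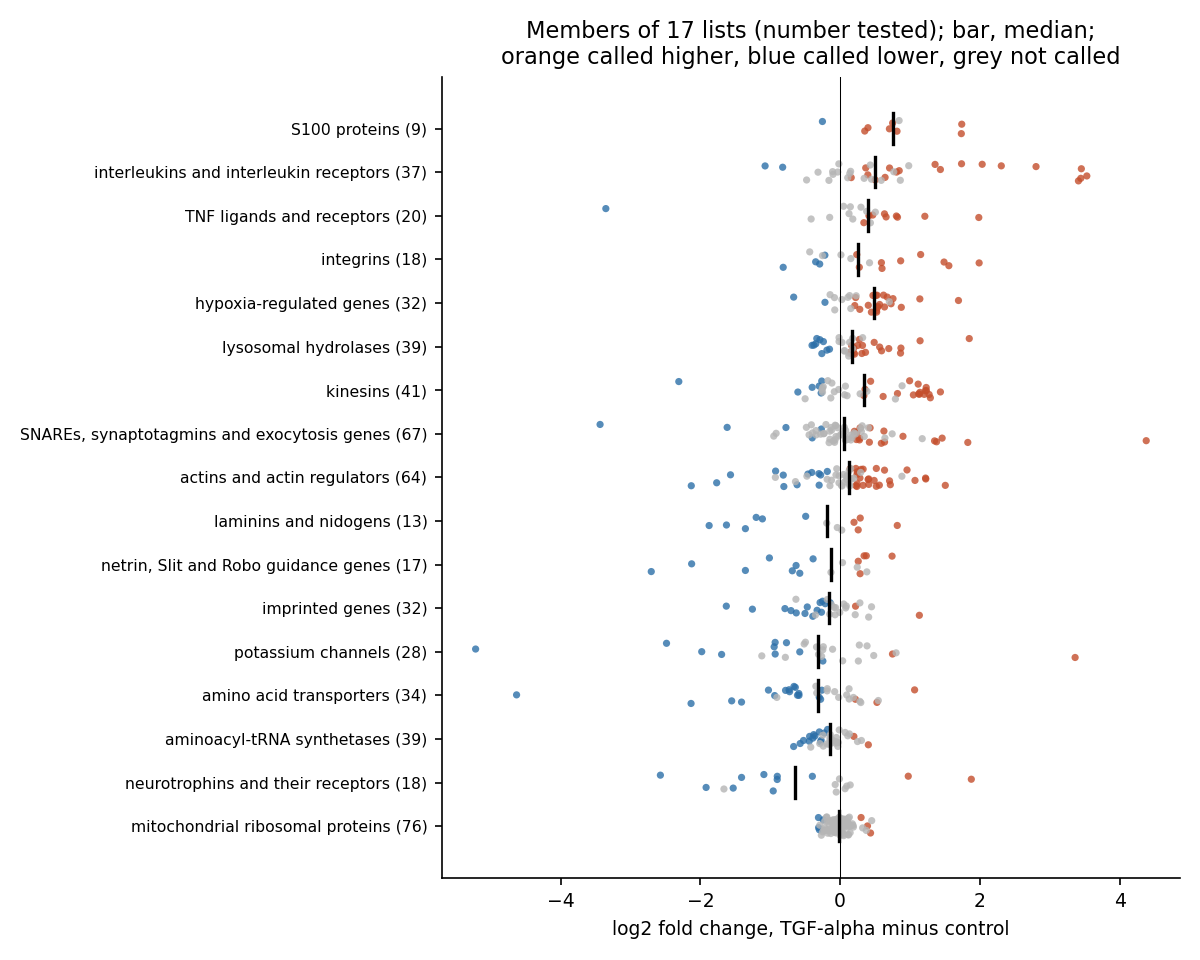
Log2 fold change of every tested member of 17 lists, with black bars at the list medians (orange, called higher; blue, called lower; grey, not called). The medians run from 0.75 in S100 proteins to -0.65 in neurotrophins, and most members of the mitochondrial ribosomal list are grey and near 0.

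Potassium channels and the sodium-potassium pump fell more often than they rose. Of 28 potassium channel genes 10 fell (6 to 8) and 2 rose (1 to 2), with a median log2 of -0.32. Against this count Kcnn4, the calcium-activated channel KCa3.1, had a large rise, from 1.56 and 0.892 to 11.8 and 13.02 CPM (log2 3.36 ± 0.26, adjusted p = 1.61e-07). Kcne4, an accessory subunit, fell from 21.2 and 21.5 to 4.11 and 3.49 CPM (log2 -2.48 ± 0.14), and Kcnma1, the large-conductance calcium-activated channel, and Kcnk1, a two-pore channel, fell 3.24-fold and 1.92-fold. Among 19 voltage-gated calcium and sodium channel genes 4 rose (2 to 4) and 5 fell (3 to 4). Cacna1h, a T-type calcium channel, went from 24.8 and 26.3 to 9.81 and 9.45 CPM and Cacna1a, of the P/Q type, from 20.5 and 21.5 to 8.15 and 8.94 CPM, while the accessory gene Cacnb2 rose 1.92-fold. The magnesium channel gene Trpm6 rose from 2.89 and 4.58 to 21.1 and 22.5 CPM (log2 2.52 ± 0.25) and the calcium-activated cation channel gene Trpm5 fell from 11.6 and 13.3 to 4.04 and 3.34 CPM, within a list of 20 TRP and mechanosensitive channels with 7 lower and 4 higher.

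The sodium-potassium pump list had 5 of 8 members lower (62.5%) and 2 higher. Atp1b1, a beta subunit of the pump, went from 14.9 and 18.98 to 6.06 and 6.33 CPM and the modulator Fxyd6 from 51.4 and 54.7 to 24.4 and 24.7 CPM, whereas Fxyd5, a modulator found in many carcinomas, rose from 19.3 and 19.4 to 69.1 and 63.7 CPM (log2 1.78 ± 0.09). Of 42 calcium handling genes 13 rose (7 to 9) and 6 fell. The falls included Atp2b4, a plasma membrane calcium pump, from 12.5 and 10.8 to 3.53 and 4.44 CPM, and the sodium-calcium exchanger gene Slc8a3, from 14.1 and 11.5 to 6.06 and 5.38 CPM. Chrna4, a nicotinic receptor subunit, was at 2.50 and 3.38 CPM in control and 0 and 0.436 CPM with TGF-alpha, close to the limit of detection. Of 73 transporters of organic anions, nucleosides and bicarbonate 22 fell (11 to 18) and 7 rose. Members that rose included Slc29a1, the equilibrative nucleoside transporter, from 101 and 106 to 273 and 298 CPM, and Slco2a1, the prostaglandin transporter, from 23.7 and 23.1 to 58.6 and 56.3 CPM. The orphan monocarboxylate transporter gene Slc16a14 fell 3.73-fold, from 41.3 and 41.6 to 11.6 and 10.6 CPM.

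Of 55 cyclic nucleotide genes 11 rose (7 to 9) and 13 fell (8 to 10). C-type natriuretic peptide drives growth plate elongation through cyclic GMP and its kinase, and Npr3, whose fall is given above, removes that peptide. Prkg2 (chromosome 5, 98929773 to 99037375), cyclic GMP-dependent kinase II, rose from 9.60 and 9.17 to 54.01 and 41.6 CPM (log2 2.35 ± 0.13, adjusted p = 5.18e-09), and Pde7b, a phosphodiesterase of cyclic AMP, fell from 14.5 and 12.9 to 3.46 and 4.22 CPM. Rapgef3, the cyclic AMP-activated exchange factor Epac1, rose from 5.93 and 11.5 to 23.2 and 21.5 CPM, with the control libraries well apart from each other. Rgs2 and Rgs17, which shorten G protein signals, rose 3.42-fold and 2.37-fold, and were 2 of the 9 RGS genes tested.

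Regulators of Ras rose more often than they fell. Of 31 Ras GEFs and GAPs 11 rose and 5 fell (3 to 4). Rerg, a Ras-like GTPase, went from 0.937 and 1.40 to 9.09 and 7.27 CPM (log2 2.78 ± 0.30), Rras from 47.5 and 53.5 to 95.3 and 104 CPM and Arhgap22, a GTPase-activating protein gene, from 6.56 and 5.79 to 19.4 and 17.96 CPM. In the tyrosine phosphatases, Ptpn7, which acts on MAP kinases, rose 11.7-fold from under 1 CPM, and the receptor-type Ptprq fell from 5.31 and 5.54 to 0.649 and 1.02 CPM. The counts were 5 of 19 higher and 2 lower (0 to 2) in the non-receptor class, and 4 of 13 higher and 5 lower in the receptor class.

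Actins and actin regulators had shares of rises and of falls above the background. Acta2 (chromosome 19, 34240336 to 34255585), smooth muscle alpha-actin, fell from 546 and 487 to 155 and 148 CPM (log2 -1.77 ± 0.06, adjusted p = 2.41e-11), and Cnn1, the smooth muscle protein calponin, from 15.8 and 15.98 to 3.46 and 3.78 CPM (log2 -2.13 ± 0.16). Acta1, the skeletal muscle actin, fell from 5.07 and 3.82 to 1.59 and 1.38 CPM, and Myh14, a nonmuscle myosin, fell 6.20-fold, from 15.5 and 17.3 to 1.95 and 3.34 CPM. Arpc1b, a subunit of the Arp2/3 complex that branches actin filaments, rose 2.84-fold, from 129.6 and 125 to 360.4 and 362 CPM, and Tmod1, which caps the slow-growing filament end, from 2.34 and 2.61 to 20.6 and 23.3 CPM. Acta1 was the 1 of 2 tested skeletal muscle markers called, in a sum of 8.98 and 8.85 CPM in control and 5.84 and 5.31 CPM with TGF-alpha. Of 64 actins and actin regulators 26 rose (40.6%) and 13 fell (20.3%). The tropomyosin genes divided, Tpm4 going from 284 and 291 to 456 and 472 CPM and Tpm1 from 739 and 724 to 481 and 474 CPM.

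Intermediate filament genes had a median log2 of 0.65, with 7 of 19 higher and 3 lower. Nes, the progenitor cell filament nestin, rose from 7.34 and 6.05 to 24.2 and 19.7 CPM, and the keratin genes Krt18 and Krt17 rose from under 1 CPM to 2.24 and 2.11 CPM and to 2.52 and 1.53 CPM, respectively, while the lens filament gene Bfsp2 fell 6.81-fold. Beside the keratins, epithelial markers had sums of 23.3 to 26.03 CPM in the 4 libraries, nearly all of it from the 1 tested marker. That marker was not called, and Esrp1 was at 0. Of 41 kinesins 18 rose and 6 fell (3 to 5). Kif14, a motor of cytokinesis, rose from 5.31 and 6.05 to 16.6 and 14.3 CPM, and Kif26a, a kinesin without motor activity, fell 4.95-fold. Map2, a microtubule protein of dendrites, went from 25.9 and 28.6 to 13.1 and 10.5 CPM.

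Of the transcription factor lists outside the AP-1 and ETS classes, bHLH factors had the largest share of rises (34.1%) and SOX genes of falls (44.4%). Rises also exceeded the background in the T-box, GATA and RUNX (33.3%), Kruppel-like (25%), forkhead (22.7%), ATF and C/EBP (22.2%) and homeobox (18.2%; 10 genes, 6 to 9) lists. Falls did so in the ATF and C/EBP (29.6%), Kruppel-like (20%) and T-box, GATA and RUNX (16.7%; 2 genes, 1) lists. The homeobox rises and the T-box, GATA and RUNX falls were close to the 15.9% and 14.0% of all tested genes. Nuclear receptors lay under both shares. Bhlhe40, a clock-linked repressor induced by hypoxia, rose from 36.9 and 34.3 to 101 and 101 CPM (log2 1.51 ± 0.07), and Epas1, hypoxia-inducible factor 2 alpha, from 18.7 and 18.4 to 50.7 and 46.4 CPM; of 44 bHLH factors 15 rose and 4 fell, Id4 among the latter (log2 -1.37 ± 0.24). Sox8 fell 3.995-fold, from 10.5 and 14.8 to 2.74 and 3.64 CPM, and Sox4 from 121 and 113 to 73.4 and 65.7 CPM, with 4 of 9 SOX genes lower and 1 higher. Klf5 rose from 5.54 and 4.14 to 10.7 and 11.2 CPM and Klf2, a factor known for its response to fluid flow in endothelium, fell from 14.9 and 15.5 to 5.84 and 5.74 CPM, in a list of 20 with 5 higher (3 to 5) and 4 lower. Maff, a small MAF factor gene, rose 3.83-fold. The mesoderm homeobox gene Meox1 fell from 22.01 and 19.5 to 8.65 and 9.02 CPM.

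The Zfp and Hox lists had shares below the background in both directions. Of 322 C2H2 zinc finger genes of the Zfp series 12 rose (3.73%; 3 to 6 with 1 library left out) and 32 fell (9.94%; 16 to 25), and of 26 Hox cluster genes 2 rose (0 to 1) and 1 fell. Imprinted genes, which are expressed from 1 parental copy and often act on growth, fell in 14 of 32 cases (43.8%) and rose in 2. Cdkn1c (chromosome 7, 143458339 to 143461059), a brake on the cell cycle, went from 357 and 361 to 138 and 163 CPM (log2 -1.26 ± 0.07), and Zim1, a zinc finger gene of the Peg3 domain, from 588 and 593 to 329 and 355 CPM. Dlk1, a Notch-like ligand of immature cells, rose from 66.4 and 62.9 to 133 and 150.2 CPM (log2 1.13 ± 0.07, adjusted p = 2.22e-08). Hosts of small nucleolar RNAs and other long noncoding RNAs fell in 9 of 22 cases (40.9%), Snhg12 from 82.97 and 79.1 to 47.4 and 50.9 CPM and Snhg5 from 48.9 and 44.5 to 33.97 and 32.3 CPM. The 1 member that rose was Neat1, the scaffold of nuclear paraspeckles, from 498 and 505 to 723 and 687 CPM. Without a stated strand, reads of overlapping antisense transcripts cannot be separated in these genes.

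Genes induced by low oxygen formed the metabolic list with the largest share of rises, 21 of 32 (65.6%) with 2 lower (1 to 2) and a median log2 of 0.49. Car9, the carbonic anhydrase of hypoxic cells, stood at 175 and 180.5 CPM in control and 385 and 399 CPM with TGF-alpha (log2 1.14 ± 0.05, adjusted p = 2.95e-10). Egln3 and Egln1, prolyl hydroxylases that mark hypoxia-inducible factors for decay, rose 3.23-fold and 1.83-fold, and Fam162a from 155 and 155 to 266 and 258 CPM. The list holds glycolytic genes such as Ldha as well. Oxidative phosphorylation subunits, of which 19 of 90 rose (6 to 10) and 5 fell (0 to 4), were counted separately. Of 36 nucleotide synthesis genes 13 rose and 5 fell (3 to 5). Among fatty acid synthesis and desaturation genes 9 of 32 rose and 8 fell: the elongase gene Elovl7 stood at 2.26 and 2.48 CPM in control and 8.87 and 8.36 CPM with TGF-alpha, the desaturase gene Scd1 at 76.1 and 78.3 CPM in control and 128 and 127 CPM with TGF-alpha and the desaturase family gene Fads3 at 317 and 317 CPM in control and 165 and 164 CPM with TGF-alpha. In the polyamine and arginine list, Nos1, neuronal nitric oxide synthase, went from 3.04 and 3.82 to 0.721 and 0.364 CPM and Ckb, brain-type creatine kinase, from 29.7 and 31.5 to 62.9 and 73.1 CPM.

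Genes of lysosomes, lipids and redox balance also rose above the background, with exceptions. Of 39 lysosomal hydrolases and membrane proteins 19 rose (12 to 17) and 9 fell (4 to 6). Npc2, the cholesterol carrier of the lysosome, went from 255 and 256 to 456 and 473 CPM (log2 0.86 ± 0.05) and the protease gene Ctsh from 41.9 and 42.7 to 77.9 and 76.9 CPM. Of 40 sphingolipid genes 16 rose and 5 fell (3 to 4). The largest change was a fall: Smpd3 (chromosome 8, 106252548 to 106337965), the neutral sphingomyelinase needed for cartilage and bone mineralization, went from 229.9 and 231 to 40.5 and 39.1 CPM (log2 -2.53 ± 0.06, adjusted p = 7.96e-13). Sphk1, which makes sphingosine 1-phosphate, and S1pr3, a receptor for it, rose 1.70-fold and 2.68-fold. Of 70 glutathione and thioredoxin genes 20 rose and 6 fell. Sod3, the extracellular superoxide dismutase, went from 94.4 and 95.6 to 221 and 219.6 CPM and Glrx from 13.4 and 15.3 to 34.5 and 37.7 CPM, against a fall of Ggt5, a gamma-glutamyl transferase family gene, from 16.6 and 17.3 to 3.25 and 4.73 CPM. The retinoid genes were opposed: Cyp26b1, which degrades retinoic acid, fell 2.85-fold (log2 -1.51 ± 0.13), and Crabp1, which binds it, rose 8.56-fold from under 1 CPM.

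Enzymes that finish the sugar chains of proteins and proteoglycans changed on both sides. Cartilage proteoglycans depend on sulfate added in the Golgi, and of 40 sulfotransferases and sulfatases 13 fell and 8 rose. Chst1, the sulfotransferase of keratan sulfate, rose from 3.59 and 4.65 to 25.5 and 25.6 CPM (log2 2.62 ± 0.16, adjusted p = 9.95e-09), while Gal3st1, which makes sulfatide, fell from 6.24 and 7.90 to 2.02 and 2.69 CPM. Of 89 glycosyltransferases 24 rose and 18 fell. Gcnt4, which branches O-linked chains, was among the 15 largest rises, from 2.89 and 4.84 to 33.6 and 34.3 CPM (log2 3.11 ± 0.21), and St6gal1, a sialyltransferase, and Lfng, which modifies Notch, rose 3.58-fold and 3.26-fold.

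Several lists of RNA and protein production had few calls in either direction. Of 76 mitochondrial ribosomal protein genes 3 rose and 4 fell (0 to 2), of 127 splicing factors 12 rose (4 to 7) and 11 fell (6 to 10), and of 39 intraflagellar transport and BBS genes of the primary cilium 4 rose (1 to 2) and 1 fell. Cytosolic ribosomal proteins had 8 of 85 higher (2 to 7) and 1 lower (0 to 1), values that may hold reads of processed copies. Falls exceeded the background share among 83 RNA polymerase and nucleolar genes, with 21 lower (25.3%; 10 to 14) and 7 higher (1 to 4). They also did so among 96 COP, clathrin and Sec vesicle coat genes, with 23 lower (24.0%; 14 to 18) and 6 higher, and among 70 translation factors, with 14 lower (7 to 12) and 8 higher (5 to 7). Eif4g2, an initiation factor, went from 914 and 966 to 707 and 677 CPM, a fall of 1.36-fold.

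Promoters of strongly induced genes were searched for 17 motifs, and the AP-1 letters had the largest excess in percentage points over all tested genes; no test of these shares was made. The AP-1 letters TGANTCA, on either strand, were in 10.2% of 423 promoters of genes that rose at least 2-fold, in 5.02% of 279 that fell at least 2-fold and in 4.74% of all 9760. They allow any base at N and so are looser than the AP-1 consensus, TGAGTCA or TGACTCA, which was not counted alone. The ETS letters CCGGAAGT were in 3.55%, 0% and 8.24% of the same sets, and the cyclic AMP element TGACGTCA in 3.31%, 0.717% and 3.31%. The interferon-stimulated response element was in 5.91%, 2.87% and 2.76%, and the NF-kappaB letters were in 0.946%, 0% and 0.389%. As a ratio of the first share to the last, NF-kappaB and the interferon element were at or above AP-1. The NF-kappaB share rested on only 4 of the 423 promoters, beside 25 for the interferon element and 43 for AP-1. The median GC content was 59.7%, 61.0% and 61.3% in the same order. A match is a description of letters in this window and not a binding site. The stretches below show the AP-1 letters in capitals in the promoters of 4 genes that rose and are described above, from the families of glycosyltransferases, synaptic adhesion, redox and hypoxia genes. They were chosen as examples of genes with the match: Car9 was the 1 match among 27 promoters of the hypoxia list.
Gcnt4, chr13:96924181-96924267, plus strand: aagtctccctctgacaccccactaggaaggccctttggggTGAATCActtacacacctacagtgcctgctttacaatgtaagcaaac
Slitrk6, chr14:110755150-110755207, minus strand: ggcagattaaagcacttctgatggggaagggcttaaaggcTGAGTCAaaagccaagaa
Glrx, chr13:75839747-75839833, plus strand: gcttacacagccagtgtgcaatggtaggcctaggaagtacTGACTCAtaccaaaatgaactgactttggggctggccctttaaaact
Car9, chr4:43506909-43506995, plus strand: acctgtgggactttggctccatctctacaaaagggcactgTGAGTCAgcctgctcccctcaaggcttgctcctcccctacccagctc
The match began 18 bases before the start used in Slitrk6, 77 in Car9 and 98 in Glrx, and farther upstream in Gcnt4. For Slitrk6 that start lies inside the gene's RefSeq span, which reaches 110755204, so its match lies inside that span too. The Gcnt4 match, TGAATCA, has neither form of the AP-1 consensus.

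**Figure D5:**
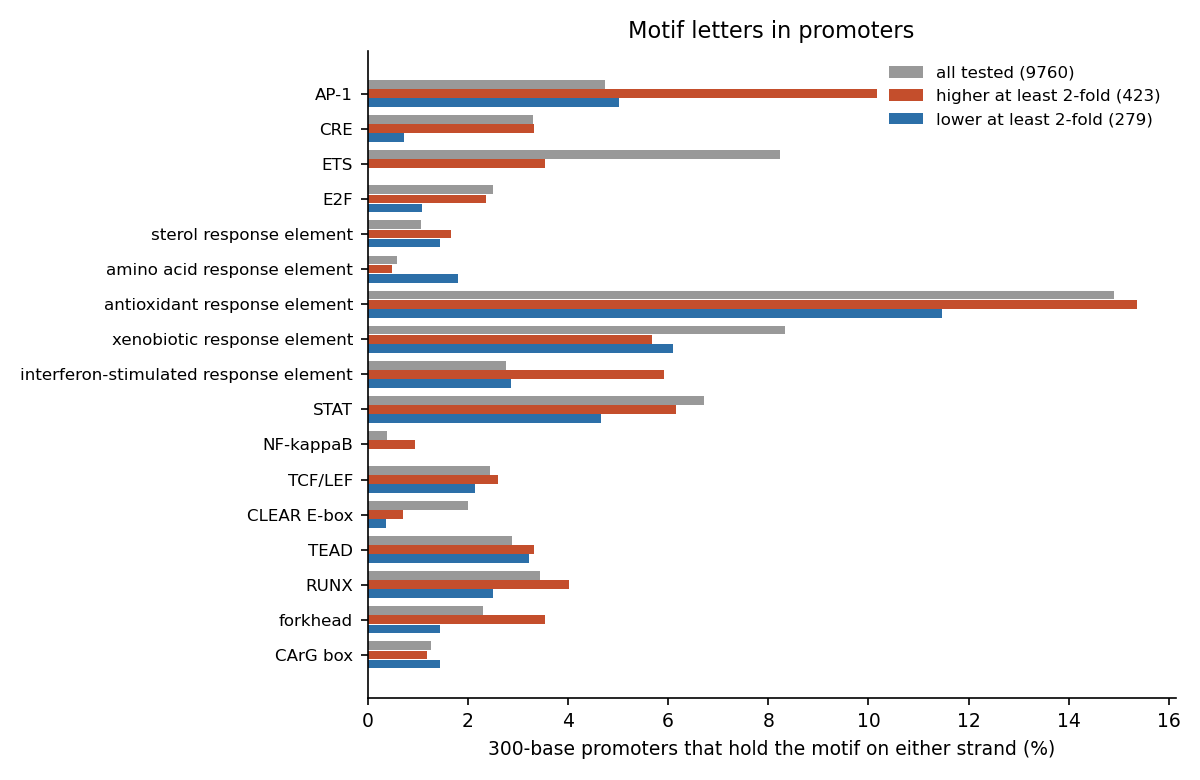
Share of 300-base promoters, in percent, that hold the letters of 17 motifs on either strand, for all tested genes (grey), genes higher at least 2-fold (orange) and genes lower at least 2-fold (blue). The orange AP-1 bar (TGANTCA, any base at N) reaches 10.2% beside 4.74% for all genes, and the ETS bar of all genes, 8.24%, exceeds both others.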

How the data were processed

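The authors deposited 1 table of raw read counts per gene for 6 RNA libraries, sequenced on the Ion Proton per the labels' protocols. Per the submitters' processing notes the reference was GRCm38, and the aligner, counter and strand setting were not given in the sources used here. Counts were filtered with edgeR's filterByExpr (minimum count 10), scaled by TMM and tested with edgeR 4.0.16's quasi-likelihood test in R 4.3.3. All 6 libraries entered the fit, the contrast was TGF-alpha minus control, and p-values were adjusted by Benjamini-Hochberg over 15362 genes. The SE of a fold change was its size divided by the square root of the F statistic. Counting error sets the precision of low levels, where 1 count was worth 0.0637 to 0.0781 CPM.

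Genes were matched to 106 lists by symbol, and all lists and members were chosen with earlier results of these data known. After a first count, 156 tested matches that did not belong to the family were left out of 49 lists. Genes named in the text are a selection from the 15 largest rises and falls averaging 5 CPM or more, the 10 largest changes in CPM each way, up to 4 called members of each list averaging 1 CPM or more, and Egfr. Promoters, start sites and gene positions came from RefSeq (GRCm38.p6). For each gene 1 window was used, the first listed for the 2019 tested genes with several, so the start may be an alternative one. Cd68, Lyz2, S100b, Flt1, Ibsp and Sp7 were named as markers. Alternatives were DESeq2 1.42.0, limma 3.58.1 (voom), other scalings and filters, a replicate block and leaving out each library. The fit was tested on simulated data.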

Additional observations from a re-analysis of the deposited data

How the results depend on the processing

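Testing against a 1.2-fold change in place of 0 left 2319 genes called, 1366 higher and 953 lower; by construction it drops small changes. DESeq2 called 3266 genes, 1758 higher and 1508 lower, and limma voom 4577. Under other scalings, filters or sample sets the count lay between 4334 and 4872. With 1 library left out it ranged from 3319 to 4770, higher genes from 1796 to 2544, lower genes from 1489 to 2243, and those changed at least 2-fold from 949 to 1108. Leaving out 1 control or TGF-alpha library kept 69% to 71.1% of the calls, with the lone library assumed to vary like the other groups. Of the calls shared with the edgeR fit, 0 had the opposite sign under any of these settings. Of 194 named genes 193 kept their direction and their side of the threshold wherever a value could be had; Timp3 was no longer called by the 1.2-fold test (log2 0.32, adjusted p = 0.142). Of 212 list counts, 64 moved by more than 1.5 times with DESeq2, 138 with the 1.2-fold test, 63 to 68 when 1 of the 4 libraries was left out, and 0 to 9 in the other settings, among them an alternative chosen after seeing the data, in which the matches left out of the lists were put back (2 moved). Same-numbered libraries did not deviate together (r = 0.0034 for control and TGF-alpha, across genes), so the numbers were not taken to pair the samples. A replicate block in the fit gave 4450 called genes, 2376 higher, 2074 lower and 1064 changed at least 2-fold. Depth limits genes under about 1 CPM, which had few counts.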
